A study of Rattus norvegicus with 4 samples.

Results

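The genes described here are 34 receptors and signalling genes of energy balance: the receptors through which the hypothalamus reads hormones and feeding peptides, and the kinases, adaptors and brakes that pass on leptin and insulin signals. They were taken from a named list and matched to the probes of a rat microarray by transcript accession, and every one of the 34 had at least 1 probe. Of these, 26 had a probe that was well above background (brighter than its local background by the scanner software's own test) on at least 3 of 4 arrays in T3 rats or in saline rats, out of 9304 genes that met the same rule. Where several probes of a gene qualified, the brightest stands for it.

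The tissue was a block of hypothalamus (bregma -2.12 to -4.52 mm). It came from 8 male Sprague Dawley rats, aged 7 weeks when the experiment began and 10 weeks when tissue was taken. All 8 drank 0.025% methimazole (MMI), which blocks thyroid hormone synthesis, for 22 days, so both groups were hypothyroid and no untreated group enters the comparison. On day 21, 4 rats received T3 (triiodothyronine, the form of thyroid hormone that binds its receptors) at 25 µg per 100 g and 4 received saline, and tissue was taken 24 hours later. Each array held the RNA of 1 T3 rat and 1 saline rat in different dyes. T3 was in the red dye Cy5 on arrays 1 and 3 and in the green dye Cy3 on arrays 2 and 4. The question was which transcripts differed between hypothyroid rats given T3 and hypothyroid rats given saline. The p-values and intervals rest on the spread between these 4 arrays, which limma moderates. It draws each probe's variance toward a value pooled over all kept probes. For a probe with all 4 arrays the pooled value weighs 4.35 degrees of freedom and the probe's own arrays 3. With no term for the dye in the main fit, the spread between arrays holds differences between pairs of rats and between dye orientations.

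Leptin from fat acts on its receptor Lepr, which activates the kinase Jak2 and the transcription factor Stat3, and Socs3 and the phosphatase Ptpn1 switch that signal off. Insulin and Igf1 act on receptor kinases that recruit the adaptors Irs1 and Irs2. In the arcuate nucleus these hormones set the activity of neurons that make melanocortin peptides, which restrain feeding through Mc4r, and of neurons that make neuropeptide Y and agouti-related peptide, which promote it. Thyroid hormone raises energy expenditure, and the hypothalamus is one of the places where it is known to act on it.

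Of 22 hypothalamic nucleus markers with a probe, 19 were above background, among them Pomc, Agrp, Hcrt, Pmch and Hdc, while Rax, Otp and Hmx2 were not. Markers of other tissues were also above background: 5 of 10 choroid plexus markers, 3 of 3 red blood cell markers, 5 of 8 pituitary markers and 4 of 5 thalamus markers. Of the pituitary list, Gh1, Prl and Pou1f1 were not above background. On array 3 the hypothalamic nucleus markers had a median log2 T3-over-saline ratio of -0.36, against -0.08 to 0.04 on the other arrays. Avp and Oxt, which encode vasopressin and oxytocin, were at -2.63 and -2.53 on array 3 and at 1.17 and 1.81 on array 1. Ttr, a choroid plexus gene, was at 3.53 on array 3. The red cell gene Hbb-b1 was at -4.25 on array 2 and at 1.87 and 1.12 on arrays 1 and 4. Between 49.8% and 67.3% of probes were well above background in each channel, and 0 spots were saturated. On every array that share was lower in the Cy3 channel than in the Cy5 channel. Hr, a nuclear corepressor directly induced by T3, was at 1.19, 1.00, 1.16 and 1.37 on arrays 1 to 4 (mean 1.18 ± 0.15, limma adjusted p = 0.0129). It lost that call when array 1, 3 or 4 was left out. Klf9 and Dio3, which T3 also induces, were at 0.90 ± 0.27 and 2.49 ± 1.16 (limma adjusted p = 0.0517 and 0.0839). Dio3 was at 3.43 and 3.56 with T3 in Cy5 and at 1.59 and 1.40 with T3 in Cy3. With a term for the dye in the limma fit, adjusted p was 7.46e-04 for Dio3 and 0.0686 for Klf9.

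No member passed the test. By limma, 0 of the 26 measured members had an adjusted p under 0.05, where 15 of the 9304 genes did (0.161%; 0.15% higher and 0.0107% lower), and the smallest adjusted p among the members was 0.430. At an unadjusted p under 0.05, 2 members were lower after T3 (Calcr and Htr2c; 3.92% of all genes were) and 0 were higher (5.34% of all genes were), which makes 2 in either direction against 9.26% of all genes. Mean ratios were above 0 for 15 members, where 51.9% of all genes were, and below 0 for 11. One sign on all 4 arrays was seen in 2 members (17.8% of all genes). In every member the levels of T3 and saline rats overlapped, and the share of all genes that did so was not counted. The median of the 26 was 0.01 on the log2 scale, against 0.004 for all genes. The members' means ran from -0.28 to 0.17. The 95% interval of the difference lay within 1.5-fold in both directions for 25 of the 26 members, as it did for 95.2% of all genes. Ntrk2 was the exception. The intervals use the moderated variance, so for a member with a wide spread they are narrower than its own 4 arrays would give. Npy5r, with an SD of 0.59, had an interval of -0.45 to 0.49. How many members would lie within 1.5-fold by their own arrays alone was not counted. These intervals bound the ratios as processed, with an offset of 50 that draws ratios of dim probes toward 0. With an offset of 16, Hr was at 1.37 and not 1.18, and the dim member Mc4r at 0.14 and not 0.10. In bulk tissue a lower number of cells of one kind and less RNA per cell cannot be told apart.

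**Figure D1:**
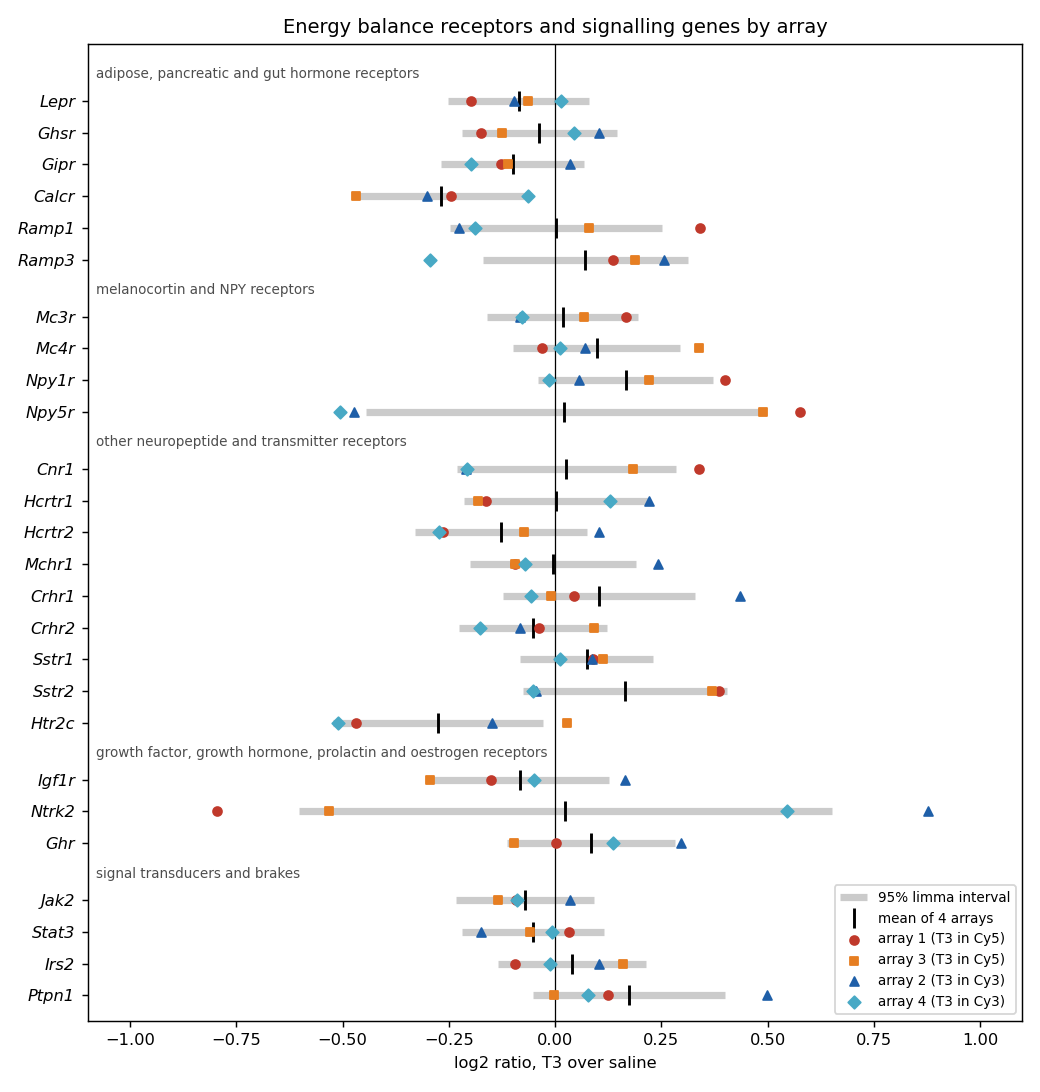
Log2 ratio of T3 over saline (horizontal axis) for the 26 measured members, grouped by role, with 1 point per array coloured by dye orientation. Black ticks are means of the 4 arrays and grey bars 95% limma intervals; Calcr is the one member with all 4 points below 0 and Sstr1 the one with all 4 above.

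Among receptors of hormones from fat, pancreas and gut, the calcitonin receptor Calcr, which also forms amylin receptors together with Ramp proteins, had the smallest p of the members. Its levels on the normalised log2 scale were 11.27, 12.16, 11.59 and 11.57 in the T3 rats of arrays 1 to 4 and 11.52, 12.47, 12.06 and 11.64 in the saline rats paired with them. Each T3 rat lay below its saline partner, although the 2 groups overlapped because the pairs differed in level. The ratios were -0.24, -0.30, -0.47 and -0.06, with a mean of -0.27 ± 0.17 (SD, n = 4 arrays; 0.83-fold, 95% interval -0.47 to -0.07, limma unadjusted p = 0.0142, adjusted p = 0.430). Ratios lower on all 4 arrays were seen in 8.03% of genes, and in 1 of the 26 members. A second Calcr probe was above background in 2 of 8 rats and was left out of the test; its ratios were -0.17, -0.44, -0.10 and -0.08. The Calcr mean stayed below 0 in each of 15 other ways of processing the data, at -0.34 to -0.18. In the authors' deposited table its values were -0.01, -0.32, 0.36 and -0.75, so that there the column of array 3 lay above 0. Over probes that column matched array 3 weakly (r = 0.19), and array 3 matched column 1 better (0.26). Values from that table, here and below, carry this limit. Without array 3 Calcr was at -0.20, with a limma unadjusted p of 0.0676.

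Ramp1 and Ramp3 encode membrane partners that turn Calcr into amylin receptors. Ramp1 was at 0.34, -0.23, 0.08 and -0.19 on arrays 1 to 4 (mean 0.0017 ± 0.26), above 0 with T3 in Cy5 and below 0 with T3 in Cy3. Ramp3 was at 0.14, 0.26, 0.19 and -0.29 (mean 0.07 ± 0.25, limma adjusted p = 0.944). Its level varied far more between pairs of rats than between treatments. Ramp3 stood at 8.85 in the T3 rat and 8.59 in the saline rat of array 2, while the other 6 rats lay between 10.45 and 11.76. The mean level of the pair ranged over 2.89 log2 units across arrays, a range exceeded by 2.73% of genes (median range of all genes 0.38). The summed level of the 4 thalamus markers followed the same order of arrays: on the log2 scale it was 15.32 and 15.21 in the T3 and saline rat of array 2, 15.66 and 15.67 on array 3, 15.96 and 15.78 on array 1 and 16.15 and 16.13 on array 4. Signals were summed on the linear scale, so the sum rests mainly on Calb2 and Prkcd (mean log2 brightness 15.09 and 13.84). Gbx2 and Lef1, at 7.15 and 7.55, add little to it. Tnnt1, the remaining thalamus marker with a probe, was not above background and is not in the sum. The part of thalamic tissue in the Ramp3 level was not tested.

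The leptin receptor Lepr was at -0.20, -0.10, -0.06 and 0.01 on arrays 1 to 4, with a mean of -0.09 ± 0.09 (95% interval -0.25 to 0.08, limma adjusted p = 0.860). Levels were 7.62 to 8.31 in T3 rats and 7.81 to 8.29 in saline rats, which overlapped. The array's single Lepr probe was used, and whether it reads the long, signalling form of the receptor was not determined. The ghrelin receptor Ghsr was above background in 6 of 8 rats, the lowest number among kept members together with Mc4r, and had a mean of -0.04 ± 0.13. For both genes the rats below background were labelled with Cy3: the saline rat of array 3 and the T3 rat of array 4. Gipr, the receptor of the gut hormone GIP, was at -0.13, 0.03, -0.11 and -0.20 (mean -0.10 ± 0.10). With the scanner software's own processed signals Gipr was at -0.26, still without a call. The insulin receptor Insr was above background in 1 of 8 rats and the GLP-1 receptor Glp1r in 2 of 8, so both were left out by the filter. With no filter each was at -0.06 (limma adjusted p = 0.995 and 0.991).

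Melanocortin and neuropeptide Y receptors all had means at or a little above 0. Mc4r, the receptor whose loss causes obesity, was at -0.03, 0.07, 0.34 and 0.01 on arrays 1 to 4 (mean 0.10 ± 0.17, limma adjusted p = 0.867), with array 3 above the other arrays. Mc3r, the other melanocortin receptor of the hypothalamus, had a mean of 0.02 ± 0.12, with arrays 1 and 3 above 0 and arrays 2 and 4 below. Npy1r, a receptor through which neuropeptide Y promotes feeding, was at 0.40, 0.06, 0.22 and -0.01. Its mean was 0.17 ± 0.18 (1.12-fold, 95% interval -0.04 to 0.37, limma adjusted p = 0.716), and its second probe gave 0.68, 0.18, 0.32 and -0.08. Both Npy1r probes therefore ran in the same order over the arrays and were highest where T3 was in Cy5. Npy2r was above background in 4 of 8 rats, just short of the filter (2 arrays in each group). With no filter it was at 0.13 (limma adjusted p = 0.900).

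Npy5r, the other feeding receptor of neuropeptide Y, went in opposite directions in the 2 dye orientations. It was 0.58 and 0.49 on arrays 1 and 3 and -0.47 and -0.51 on arrays 2 and 4, so its mean of 0.02 ± 0.59 had the widest spread but 1 among the members (1.61% of genes had a larger SD). Levels in the T3 rats were 10.52, 10.00, 10.31 and 10.30 and in the saline rats 9.94, 10.47, 9.82 and 10.80. Whichever rat was labelled with Cy5 was the higher one on every array. A limma fit with a term for the dye gave a dye effect of 0.51 for Npy5r (limma unadjusted p = 1.27e-04, adjusted p = 0.146) and left its T3 estimate where it was.

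**Figure D2:**
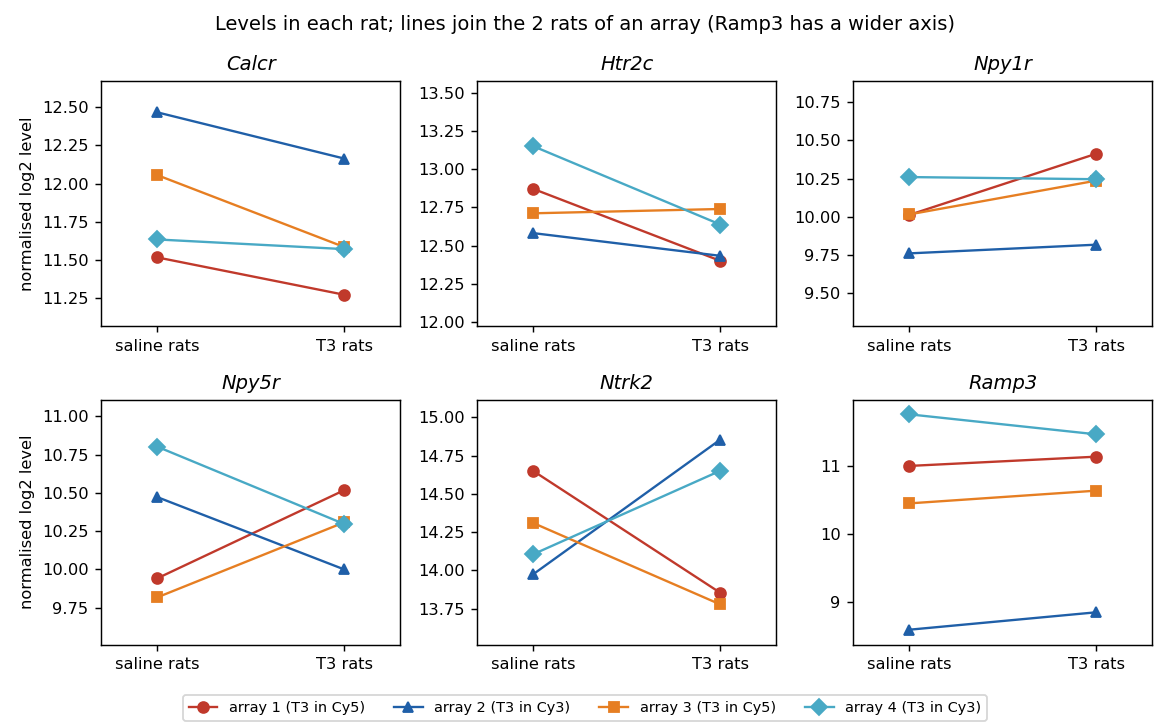
Normalised log2 level (vertical axis) in each saline rat (left) and T3 rat (right) for 6 members; each line joins the 2 rats of an array and its colour gives the dye orientation. The 4 Calcr lines slope down, the Npy5r and Ntrk2 lines cross by dye orientation, and both rats of array 2 are low for Ramp3.

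The serotonin receptor Htr2c, on which some appetite-reducing drugs act, had the lowest mean of the members. Levels were 12.40, 12.43, 12.74 and 12.64 in T3 rats and 12.87, 12.58, 12.71 and 13.15 in their saline partners. The T3 rat was lower on arrays 1, 2 and 4 and level with its partner on array 3. The ratios were -0.47, -0.15, 0.03 and -0.51, with a mean of -0.28 ± 0.26 (0.826-fold, 95% interval -0.52 to -0.03, limma unadjusted p = 0.0333, adjusted p = 0.554). Htr2c is also abundant in choroid plexus, and the 5 measured markers of that tissue had median ratios of 0.25, -0.37, 0.52 and 0.06 on arrays 1 to 4. Their summed log2 level was 10.95 to 13.95 in T3 rats, highest on array 3, and 10.56 to 11.29 in saline rats. The defining markers Ttr and Sostdc1 were above background, while Kl, Slc4a5, Clic6, Prlr and Kcne2 were not. The part of choroid plexus in the Htr2c ratios was not tested. Without array 3 Htr2c was at -0.38 (limma adjusted p = 0.655). Without array 1 or array 4 it was at -0.21 or -0.20, with limma unadjusted p of 0.125 and 0.140. In the authors' deposited table its values were 0.09, -0.30, 0.17 and -0.33, with a mean of -0.09. A second, dimmer Htr2c probe gave 0.09, -0.20, 0.05 and -0.07, with a mean of -0.03.

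Orexin receptors mediate arousal and food seeking. Hcrtr2 had a mean of -0.13 ± 0.18 with values from -0.27 to 0.10 and was lower on 3 of 4 arrays. Hcrtr1 was at -0.16 and -0.18 with T3 in Cy5 and at 0.22 and 0.13 with T3 in Cy3, which left a mean of 0.0015 ± 0.20. The melanin-concentrating hormone receptor Mchr1 was at 0.24 on array 2 and between -0.10 and -0.07 on the others. The stress peptide receptors Crhr1 and Crhr2 had means of 0.10 ± 0.22 and -0.05 ± 0.11, and for Crhr1 array 2 at 0.43 was the one clearly above 0.

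Somatostatin restrains growth hormone release and many hypothalamic neurons. Its receptor Sstr1 was the one member above 0 on all 4 arrays, where 9.74% of genes were, at 0.09, 0.09, 0.11 and 0.01 (mean 0.07 ± 0.04, limma adjusted p = 0.875). This was also the tightest spread of the members, and 97.1% of genes had a larger SD. Sstr2 was at 0.39 and 0.37 on arrays 1 and 3 and at -0.04 and -0.05 on arrays 2 and 4, with a mean of 0.16 ± 0.25 (limma adjusted p = 0.778). With a dye term, limma gave Sstr2 an unadjusted p of 0.0256 and an adjusted p of 0.330. The galanin receptor Galr1 was above background in 1 of 8 rats and was left out by the filter.

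The cannabinoid receptor Cnr1, which promotes feeding, was read by a pair of probes that disagreed on every array. The brighter probe gave 0.34, -0.21, 0.18 and -0.21 on arrays 1 to 4 and the dimmer one -0.19, 0.34, -0.20 and 0.11. Each followed the dye, in opposite senses, and their means were 0.03 ± 0.28 and 0.02 ± 0.26.

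Among growth factor and pituitary hormone receptors, Ntrk2, the receptor of the brain-derived growth factor Bdnf, had the widest spread of the members. Its brightest probe was at -0.80, 0.88, -0.53 and 0.54 on arrays 1 to 4 (mean 0.02 ± 0.81, 95% interval -0.60 to 0.65). The rat labelled with Cy3 was the higher one on every array, and 0.677% of genes had a larger SD. Ntrk2 was also measured by 2 further probes. The one matched to the same transcript record gave 0.08, -0.45, -0.24 and -0.34 (mean -0.24, limma unadjusted p = 0.0447, adjusted p = 0.599). The one matched to another transcript record gave -0.43, 0.18, -0.30 and 0.42 (mean -0.04). The means of the 3 probes differ in sign, so no single direction is given for Ntrk2.

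Igf1r, the receptor kinase of insulin-like growth factor, was at -0.15, 0.17, -0.29 and -0.05 (mean -0.08 ± 0.19, limma adjusted p = 0.911). The growth hormone receptor Ghr was at 0.001, 0.30, -0.10 and 0.14 (mean 0.08 ± 0.17). The prolactin receptor Prlr and the oestrogen receptor Esr1 were above background in 0 of 8 rats. Signals near background do not show that the transcripts were absent.

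Of the transducers and brakes of leptin and insulin signalling, 4 of 6 were measured. Jak2 was at -0.09, 0.04, -0.13 and -0.09 (mean -0.07 ± 0.07, 95% interval -0.23 to 0.09). Stat3 had a mean of -0.05 ± 0.09, and its second probe one of -0.07. The adaptor Irs2 was at -0.09, 0.10, 0.16 and -0.01 (mean 0.04 ± 0.11). Ptpn1, the phosphatase that ends leptin and insulin signalling, had a mean of 0.17 ± 0.22, level with Npy1r and Sstr2 at the top of the members (1.13-fold, 95% interval -0.05 to 0.40, limma adjusted p = 0.736). Array 2 was the highest, at 0.50, against 0.13, -0.0024 and 0.08 on arrays 1, 3 and 4. Without array 2 the Ptpn1 mean was 0.07, below Sstr2 at 0.23 and Npy1r at 0.20, and in the authors' deposited table it was 0.02. Its level also differed between pairs: both rats of array 4 were at 7.73 and 7.65, and the other 6 rats lay between 8.43 and 8.93. Socs3, the leptin-induced brake, was above background in 1 of 8 rats and Irs1 in 0 of 8, so both were left out by the filter. With no filter they were at 0.03 and -0.03 (limma adjusted p = 0.998 and 0.996).

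For 8 of the 26 measured members (30.8%) the ratio had one sign on arrays 1 and 3 and the other sign on arrays 2 and 4, where 23.5% of all genes did. Ghsr, Ramp1, Mc3r, Npy5r, Cnr1, Hcrtr1, Sstr2 and Ntrk2 were these 8. Limma with a dye term called 0 members for a dye effect after adjustment, as it called 0 of all 9304 genes. An unadjusted dye p under 0.05 was found for 6 members, against 15.6% of all genes. With the dye term, 4 members (Calcr, Htr2c, Npy1r and Sstr2) had an unadjusted p under 0.05 for T3, against 13.2% of all genes, and 0 passed after adjustment (0.086% of all genes). Because 2 arrays ran each way, the mean of 4 arrays carries no net effect of a constant dye bias. The SD and the p-value of the fit without a dye term still hold it.

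**Figure D3:**
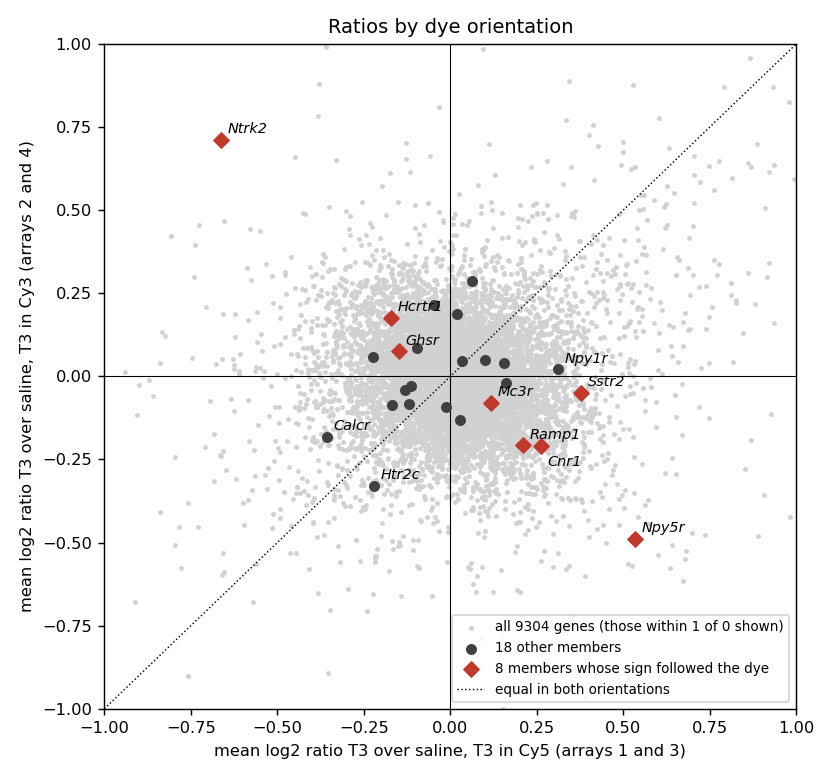
Mean log2 ratio of T3 over saline on the 2 arrays with T3 in Cy5 (horizontal axis) against the 2 arrays with T3 in Cy3 (vertical axis), for all genes (grey) and the 26 measured members. Red diamonds are the 8 members whose sign followed the dye; Ntrk2 (-0.66 and 0.71) and Npy5r (0.53 and -0.49) lie farthest from the dotted line of equal ratios, and Calcr and Htr2c are below 0 on both axes.

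The wider leptin, insulin and growth factor pathway was read through a companion list, of which 53 of 64 genes were measured. By limma 0 of the 53 passed, where 0.161% of all genes did. At an unadjusted p under 0.05, 7 were higher and 0 lower, against 5.34% and 3.92% of all genes, and the median of the 53 was 0.01. Stat5a, a transcription factor used by growth hormone and prolactin receptors, was at 0.82, 0.42, 0.73 and 0.88 on arrays 1 to 4 (mean 0.71 ± 0.21, limma adjusted p = 0.0571). Sh2b2, an adaptor of Jak2 and of the insulin receptor, was at 1.00, 0.41, 0.72 and 0.87 (mean 0.75 ± 0.25, limma adjusted p = 0.0693). Igfbp4, which binds insulin-like growth factors, was at 0.65, 0.32, 0.58 and 0.70 (mean 0.56 ± 0.17, limma adjusted p = 0.0816). All 3 were above 0 on every array and lowest on array 2. Without array 2, where they were lowest, limma called all 3, at 0.81, 0.86 and 0.64. Without array 1, 3 or 4 it called none of them (limma adjusted p from 0.234 to 0.385). From the authors' deposited table, Stat5a, Sh2b2 and Igfbp4 had limma adjusted p of 0.703, 0.499 and 0.810. The ligand Igf1 was at 0.37, 0.01, 0.72 and 0.81 (mean 0.48 ± 0.36, limma adjusted p = 0.340).

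On the lower side of that list, Bdnf was at -0.25, -0.17, -0.01 and -0.24 (mean -0.16 ± 0.11, limma adjusted p = 0.640). Tsc2, a brake on growth signalling, was at -0.11 ± 0.05 and Ngfr, a neurotrophin receptor, at -0.14 ± 0.20.

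Of 74 other receptors for peptides, amines and steroids, 33 were measured. By limma 0 of these passed (0.161% of all genes), and 4 were higher and 0 lower at an unadjusted p under 0.05 (5.34% and 3.92% of all genes). Their median was 0.02. Gpr83, a receptor of hypothalamic neurons linked to energy balance, was at 0.66, 0.28, 0.55 and 0.16 (mean 0.41 ± 0.23, 1.33-fold, limma adjusted p = 0.253), and at 0.07 in the authors' deposited table. The dopamine receptor Drd2 was at 0.29, 0.22, 0.26 and 0.11 (mean 0.22 ± 0.08), and the orphan nuclear receptor Esrra was at 0.21 ± 0.12. Both were above 0 on all 4 arrays. The cholecystokinin receptor Cckbr was at 0.34 ± 0.27, with array 1 at -0.07, and at 0.04 in the authors' deposited table. Ramp2, the remaining partner of calcitonin-type receptors, had a mean of -0.16 ± 0.18, the opioid receptor Oprd1 of -0.09 ± 0.11, Il6r of -0.14 ± 0.28 and Gpr101 of -0.07 ± 0.22.

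**Figure D4:**
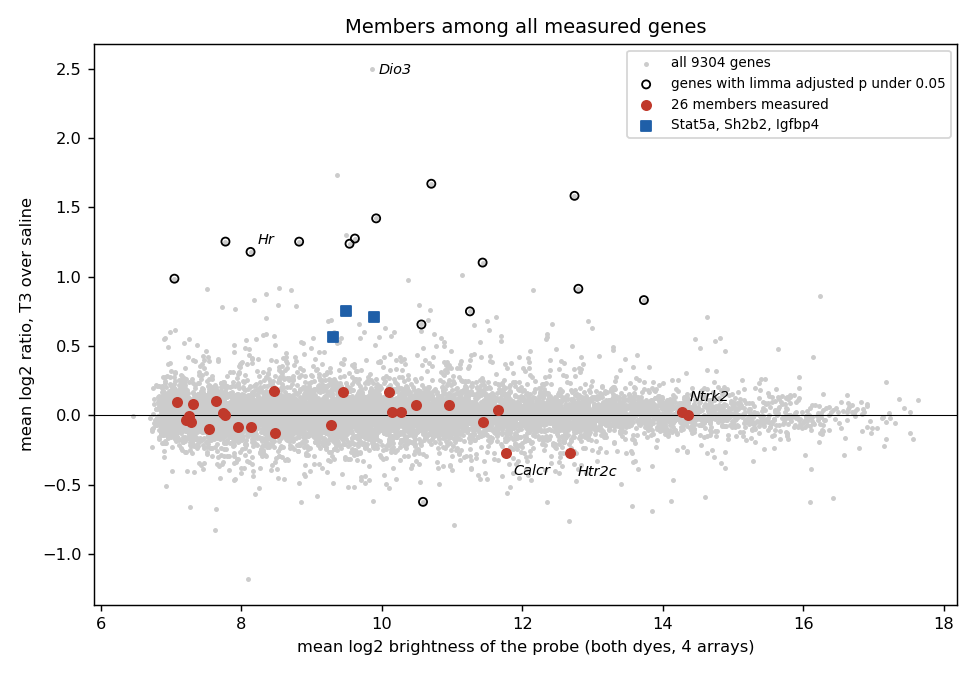
Mean log2 ratio of T3 over saline (vertical axis) against mean log2 probe brightness (horizontal axis) for the 9304 measured genes. Members (red) lie between -0.28 and 0.17; genes past the threshold are circled, and Stat5a, Sh2b2 and Igfbp4 of the companion list (blue) lie between 0.56 and 0.75.

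Thyroid hormone receptors bind the half-site AGGTCA, and Stat proteins bind sites of the form TTCNNNGAA. Promoter sequences from RefSeq (build GRCr8) were matched to 29 of the 34 members, and the 250 bases before the start were searched on both strands; Gipr, Cnr1, Mchr1, Ntrk2 and Irs2 had no match. For a member only the first promoter listed was searched, while the share of all promoters counts every promoter listed. The half-site was present in 2 of the 29 (6.9%) and in 14.1% of all 33469 promoters. Its direct repeat with a spacer of 4 bases (DR4) was present in 0 of the 29 and in 0.00299% of all promoters. A Stat site was present in 2 of the 29 (6.9%), Htr2c and Esr1, and in 7.67% of all promoters. The 2 matches of the half-site and the match in Htr2c, one of the 2 members with the smallest p, are shown 5′ to 3′ on the strand of the gene, with the matched bases in capitals. A match is a description of letters and not a site known to be bound.
Ptpn1, chr3:177057504-177057549, + strand: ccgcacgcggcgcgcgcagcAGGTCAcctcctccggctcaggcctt
Hcrtr2, chr8:85986547-85986592, - strand: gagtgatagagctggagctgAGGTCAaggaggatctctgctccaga
Htr2c, chrX:115453065-115453113, + strand: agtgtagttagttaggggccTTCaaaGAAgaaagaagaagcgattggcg
The Ptpn1 and Hcrtr2 matches begin 209 and 167 bases before the start, and that of Htr2c 105 bases before it. Ptpn1 and Hcrtr2 had mean ratios of opposite sign, 0.17 and -0.13, and neither passed the test.

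**Figure D5:**
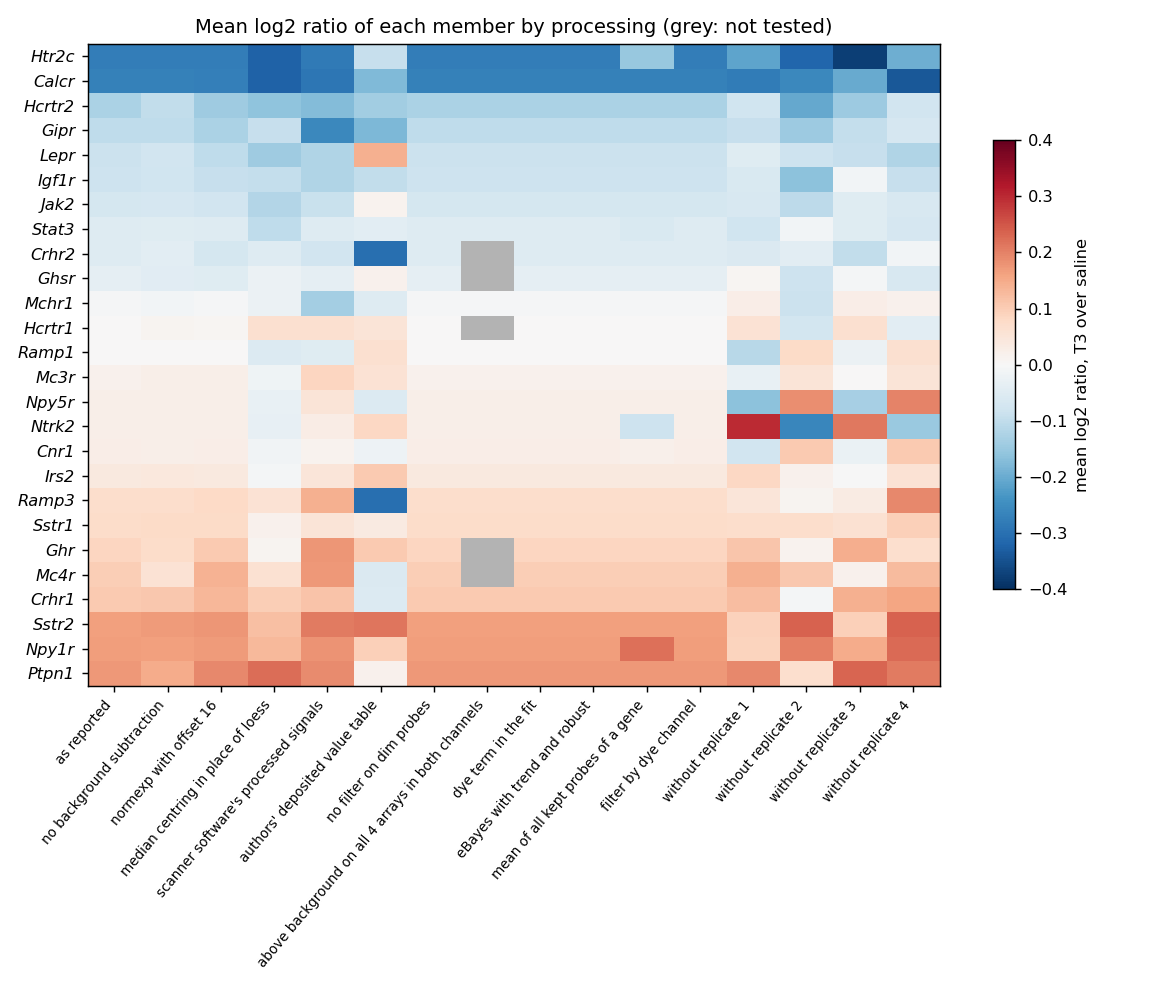
Mean log2 ratio of T3 over saline (colour) of each measured member (rows, ordered by the reported mean) under the reported processing and 15 alternatives (columns); grey cells were not tested there. Calcr and Htr2c are blue in every column, and members near 0 such as Ramp1, Npy5r and Ntrk2 change colour when an array is left out.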

How the data were processed

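RNA was amplified and labelled with Cy3 or Cy5, per the labels' protocols. The deposited scanner files hold median spot and background intensity, not normalized, and processed intensity values; per the file headers the software was Agilent's Feature Extraction, version 10.7.3.1. The authors' deposited table holds log2 ratios, for which the submitters' processing notes name limma 3.18.9. How its values were scaled and centred is not given in the sources used here.

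Medians were background-corrected by normexp (offset 50) and loess-normalized in limma 3.58.1 under R 4.3.3; control and outlier spots were left out. Ratios were turned to T3 over saline. Levels were scaled by Aquantile. Of 41012 probes, 23190 were kept and 16964 had a symbol by accession (RefSeq, GRCr8, names only). One limma fit covered all kept probes, with Benjamini-Hochberg adjustment; errors are SDs over 4 arrays, whose number limits the precision. All arrays lay on 1 slide. The fit was run on simulated ratios with independent normal noise and no dye effect, so this run does not cover dye bias. Of 100 probes with a true log2 ratio of 0.5 in either direction, limma called 87. Of 100 at 1 it called 100, and 18 other probes were called falsely. Members and lists were chosen with earlier results of these data known. All 34 members are named, with up to 4 genes per direction of each companion list (1 of these is not reported here) and Hr, Klf9, Dio3, Avp, Oxt, Ttr and Hbb-b1. The closing section gives the alternatives.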

Additional observations from a re-analysis of the deposited data

Results flagged for a closer look

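A value on 1 array stood apart from the other 3 in 3 of 64 genes and list medians examined, where chance gives about 1 in 20, or 3. For Mchr1 the ratio was 0.24 on array 2, while the remaining arrays gave -0.10 to -0.07; that gap made up 0.926 of the whole range. For Esrra array 3 gave 0.38 and each remaining array 0.15, a share of 0.968. For Cckbr array 1 gave -0.07 and the remaining arrays 0.44 to 0.51, a share of 0.876.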

How the results depend on the processing

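In all 15 alternatives 0 members were called, and 12 of the 26 kept 1 sign throughout. Members with an unadjusted p under 0.05 numbered 0 with median centring or in the authors' deposited table. They numbered 1 with processed signals, trend and robust or the mean of all kept probes, and 4 with the dye term, not 2. They were 1 to 2 with an array left out. Of the 23190 kept probes, 1883 were under 0.05 as reported. That number was 131 with median centring, 1133 in the authors' deposited table and 1948 with processed signals. It was 1160 with trend and robust, 2902 with the dye term and 1383 to 2330 with an array left out. Members with 1 sign on all arrays used numbered 1 with median centring, 3 without background subtraction, with processed signals or in the authors' deposited table, 4 with no filter (over all 34 members) and 4 to 7 with an array left out, not 2; with fewer arrays 1 sign is easier to meet. The members' median of 0.01 ran from -0.02 to 0.03. The 23 probes called became 14 (offset 16), 0 (median centring, processed signals, trend and robust), 10 (authors' deposited table), 67 (no filter), 15 (dye term) and 0 to 68 with an array left out, 68 being without array 2. Of the first companion list 2 were called with no filter, 3 with gene means, and 0 to 3 with an array left out, 3 being without array 2. Of Hr, Klf9 and Dio3, 1 was called as reported, 2 without background subtraction, with the dye term or with gene means, and 3 with no filter. With median centring, processed signals, trend and robust or the strict filter 0 were called, and 0 to 2 with an array left out. The strict filter (above background on all 4 arrays in both channels) left Hr out, so Hr was not tested there. The filter by dye channel, chosen after seeing the data, left the 23 as they were in number.

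The authors' deposited table matched the scanner ratios weakly (r = 0.43, 0.43, 0.19 and 0.28 over probes for arrays 1 to 4, read as T3 over saline; column medians 0.0026, -0.0024, 0.0021 and 0.0030). Array 3 matched column 1 better (0.26) and array 4 column 2 (0.31); the cause was not tested. That table changed the sign of 8 of 26 members, among them Lepr (0.14) and Ramp3 (-0.30), and put Crhr2 at -0.30. Signal over background left 8 members out of all fits but the one with no filter.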
